A study of Mus musculus with 8 samples.

Results

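Genes of the BCL2 family, which set how readily a cell enters apoptosis, and the long non-coding RNA Morrbid were followed in the ascending aorta of mice with a hypomorphic fibrillin-1 gene. The 9 genes (Bcl2a1a, Bcl2a1b, Bcl2a1d, Bcl2, Bcl2l1, Mcl1, Bcl2l11, Bax and Morrbid) were chosen by name, with their measured differences between the genotypes in these arrays already in view. Each was read from the transcript cluster, the array's unit of measurement for a transcript, that carries its symbol alone. Such a cluster was found for 7 of the 9, of 30142 genes that have one, and each of the 7 had exactly 1, so no choice between clusters was needed. Bcl2a1b was represented only by a cluster that also carries Bcl2a1a, and Bax was not analysed here. Because the genes were picked with this comparison known, their differences are given as a description, without p-values.

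The samples were ascending aortas of 10-week-old male mice, snap-frozen, with total RNA labelled with biotin and hybridised to Affymetrix Clariom D mouse arrays. The Fbn1mgR/mgR mice (4 arrays: mgR611, mgR612, mgR613 and mgR614) carry the mgR allele of Fbn1, the fibrillin-1 gene, on both copies. The wild-type group (4 arrays, WT675, WT676, WT742 and WT744) were bred from Fbn1mgR/+ parents as well, and both genotypes share the C57BL/6J background. The mgR allele lowers the amount of fibrillin-1 made and is used as a model of severe Marfan syndrome, in which the aorta widens and can rupture. Values are the authors' log2 signals, so a difference of 1 is a 2-fold change, and differences are Fbn1mgR/mgR minus wild-type. The labels do not state that each sample is a separate animal, and errors and p-values therefore cover only the scatter of these 8 samples, part of which can be technical. The Fbn1 transcript, which could have served as a check of the genotypes, was not analysed here.

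BCL2, BCL-XL (from Bcl2l1), MCL1 and A1 (from the Bcl2a1 genes) hold back apoptosis by binding proteins that drive it, among them BIM (from Bcl2l11) and the pore-forming effectors BAX and BAK. A1 is made mainly in blood-derived cells and is a known target of NF-kappaB, whereas BCL-XL and MCL1 are made in most tissues. Morrbid lies beside Bcl2l11 and, in mouse neutrophils, eosinophils and inflammatory monocytes, has been reported to repress Bcl2l11 from the same chromosome and to lengthen the life of these cells, in response to cytokines such as interleukin-3, interleukin-5 and GM-CSF.

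The mouse A1 genes are near-identical copies, and stretches before their starts are shown to let the copies be compared with each other and with Morrbid. These bases lie outside the transcripts, so they do not bear on what the probes bind, and transcript and probe sequences were not compared. In the 250 bases before the start, the Bcl2a1a and Bcl2a1b windows were identical at 205 of 206 aligned positions (99.5%). The Bcl2a1a and Bcl2a1d windows were identical at 238 of 250 aligned columns (95.2%), of which 6 were gaps. Those of Bcl2a1a and Bcl2a1c, a relative outside the 9 genes, were identical at 132 of 140 (94.3%). The lowest pair was Bcl2a1d and Bcl2a1c, at 127 of 140 (90.7%), with 6 gaps. The alignments were local, so only the part of each pair of windows that aligned is counted. The stretches follow from RefSeq, build GRCm38.p6, written 5′ to 3′ on the gene's own strand: chr9:88956786-88956885 on the plus strand for Bcl2a1a, chr9:89199095-89199194 on the plus strand for Bcl2a1b, chr9:88731885-88731984 on the minus strand for Bcl2a1d, chr9:114329891-114329990 on the plus strand for Bcl2a1c and, for comparison, chr2:128429352-128429398 on the minus strand for Morrbid. Capitals mark GAGGAAGT, a motif chosen after the sequences had been read.
Bcl2a1a: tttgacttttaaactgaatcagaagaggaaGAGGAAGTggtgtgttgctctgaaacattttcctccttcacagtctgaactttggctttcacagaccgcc
Bcl2a1b: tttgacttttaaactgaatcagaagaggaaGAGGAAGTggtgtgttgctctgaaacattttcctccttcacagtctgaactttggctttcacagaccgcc
Bcl2a1d: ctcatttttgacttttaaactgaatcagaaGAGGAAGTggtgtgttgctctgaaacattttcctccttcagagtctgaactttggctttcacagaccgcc
Bcl2a1c: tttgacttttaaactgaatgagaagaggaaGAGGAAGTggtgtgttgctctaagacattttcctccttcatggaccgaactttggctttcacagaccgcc
Morrbid: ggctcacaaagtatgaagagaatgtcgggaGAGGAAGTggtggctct

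The 8 letters GAGGAAGT were present once in the window of each of the 4 A1 genes and of Morrbid, on the strand of the gene. They were absent from the windows of Bcl2, Mcl1, Bcl2l1 (3 windows) and Bcl2l11 (2 windows). Of 32851 windows of 250 bases in the promoter table, 802 (2.44%) held the motif on either strand. The motif was chosen from these sequences and the A1 windows are close copies over the parts that aligned, so this share tests nothing. The motif begins 17 bases before the start of Morrbid, 104 bases before those of Bcl2a1a and Bcl2a1d, 148 before that of Bcl2a1b and 214 before that of Bcl2a1c. In the stretches shown, the shorter run GAGGAA occurs 2 times in Bcl2a1a, Bcl2a1b and Bcl2a1c, and 1 time in Bcl2a1d and Morrbid. Other motifs were searched in the same windows on both strands. TGANTCA, in which N is any base, reads the same on both strands and is looser than the core bound by AP-1. It was found once each in Bcl2a1a, Bcl2a1b and Bcl2a1d (6.75% of all windows). All of these matches read TGAATCA, so they are not counted as AP-1 sites. The kappaB consensus was found in 1 of the 3 Bcl2l1 windows (7.25% of all windows), and TATAAA in none of these genes' windows (12.4% of all). A match describes letters and not binding, and the search covers these 250 bases alone. The TGANTCA matches did not overlap GAGGAAGT: they read tgaatca in the stretches shown and end 9 bases before it in Bcl2a1a and Bcl2a1b and 3 bases before it in Bcl2a1d, which has 1 copy fewer of GAGGAA.

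Among the clusters of the selected genes, the 3 that carry Bcl2a1a, Bcl2a1b or Bcl2a1d had the largest differences. Bcl2a1a read 10.62, 12.18, 11.74 and 11.94 in the Fbn1mgR/mgR arrays mgR611 to mgR614, against 7.88, 8.37, 7.22 and 7.46 in the wild-type arrays WT675, WT676, WT742 and WT744. All 4 mutant values lay above all 4 wild-type values, and mgR611 was the lowest of the mutants by more than 1 log2 unit. The means were 11.62 ± 0.691 in Fbn1mgR/mgR and 7.73 ± 0.505 in wild-type (SD, n = 4 each), a difference of 3.89 (SE 0.358) or 14.8-fold.

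Bcl2a1d read 6.26, 6.80, 7.46 and 7.63 in the Fbn1mgR/mgR arrays, against 4.29, 4.54, 3.91 and 4.17 in the wild-type arrays. The genotypes were again apart, with mgR611 the lowest mutant and WT742 the lowest wild-type array, as for Bcl2a1a. The difference was 2.81 (SE 0.285), or 7.01-fold. The wild-type value of 3.91 in WT742 lay below 4.13, the 95th percentile of 1083 olfactory receptor genes that served as a mark of dim signal, so the size of this difference is uncertain. It was the only one of the 7 genes with an array under that mark.

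The cluster that carries both Bcl2a1b and Bcl2a1a read 8.04, 8.58, 8.18 and 8.89 in the Fbn1mgR/mgR arrays, against 5.92, 5.62, 4.87 and 5.07 in the wild-type arrays. Its genotypes did not overlap, and its difference was 3.05 (SE 0.266), or 8.30-fold. How far each of these 3 clusters, and that of Bcl2a1c, binds transcripts of the other copies was not tested, and the signal is not assigned to one copy. The levels of different clusters depend on their probes and were not compared with each other.

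**Figure D1:**
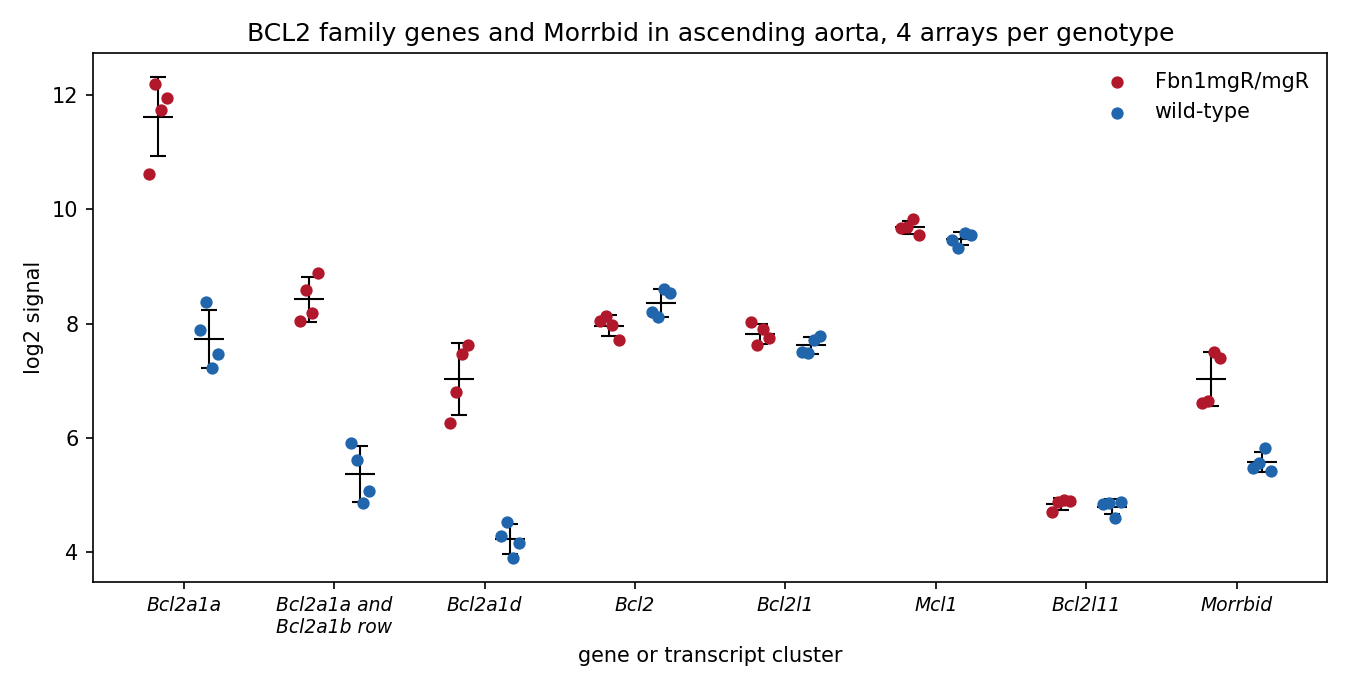
Log2 signal (vertical axis) of each transcript cluster (horizontal axis) in every array, Fbn1mgR/mgR in red and wild-type in blue; black bars give the mean and SD of 4 arrays. The 3 A1 clusters and Morrbid have no overlap between genotypes, and the other 4 genes do.

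Morrbid, listed under the older name Gm14005 on the platform, read 6.61, 6.65, 7.50 and 7.39 in the Fbn1mgR/mgR arrays, against 5.47, 5.57, 5.82 and 5.43 in the wild-type arrays. The mutant arrays fell into a lower pair (mgR611 and mgR612) and a higher pair (mgR613 and mgR614), and the lowest of them stood 0.79 above the highest wild-type array, WT742. The means were 7.04 ± 0.473 in Fbn1mgR/mgR and 5.57 ± 0.175 in wild-type (SD, n = 4 each), a difference of 1.46 (SE 0.222) or 2.76-fold.

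Bcl2l11, which encodes the pro-apoptotic protein BIM, read 4.70, 4.88, 4.92 and 4.89 in the Fbn1mgR/mgR arrays, against 4.85, 4.86, 4.61 and 4.88 in the wild-type arrays. The values were intermixed, and the difference was 0.05 (SE 0.101), or 1.03-fold. Without WT742, whose value lay lowest, it was −0.02. The Bcl2l11 values ran from 4.61 to 4.92, not far above the dim mark of 4.13, so the size of its difference is uncertain. Morrbid and its reported target had differences of 1.46 and 0.05 in the same arrays, and the aorta as a whole cannot show what either does within one cell type.

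Bcl2, the founding member of the family, read 8.05, 8.13, 7.97 and 7.71 in the Fbn1mgR/mgR arrays, against 8.20, 8.11, 8.60 and 8.54 in the wild-type arrays. The genotypes overlapped by 0.02, since mgR612 lay above WT676. The means were 7.96 ± 0.182 in Fbn1mgR/mgR and 8.36 ± 0.244 in wild-type (SD, n = 4 each), a difference of −0.40 (SE 0.161). It was the only one of the 7 genes with a negative difference.

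Mcl1, whose short-lived protein protects many cell types, read 9.67, 9.69, 9.82 and 9.55 in the Fbn1mgR/mgR arrays, against 9.47, 9.33, 9.59 and 9.55 in the wild-type arrays. Bcl2l1, the BCL-XL gene, read 8.02, 7.62, 7.91 and 7.75 in the Fbn1mgR/mgR arrays, against 7.50, 7.48, 7.72 and 7.78 in the wild-type arrays. Both overlapped between genotypes. The difference was 0.20 for Mcl1 (SE 0.126) and 0.20 for Bcl2l1 (SE 0.140), or 1.15-fold each.

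Of the 7 genes, 3 (Bcl2a1a, Bcl2a1d and Morrbid) passed the limma threshold, a Benjamini-Hochberg adjusted p of 0.05 over all 32957 clusters tested, in the higher direction, and 0 in the lower. Over all clusters tested, 1.54% were called higher and 0.558% lower. The same 3 genes had all Fbn1mgR/mgR values above all wild-type values, as 5.26% of all clusters did, and 0 had them all below, as 3.65% of all clusters did. These counts carry no evidence of their own, because the genes were picked with the comparison known. The median difference over all clusters tested was −0.02, with 5th and 95th percentiles of −0.49 and 0.50.

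With each array left out in turn, the difference ranged from 3.70 to 4.22 for Bcl2a1a, from 2.61 to 3.07 for Bcl2a1d and from 1.31 to 1.61 for Morrbid. It ranged from −0.48 to −0.31 for Bcl2, from 0.14 to 0.27 for Bcl2l1, from 0.15 to 0.24 for Mcl1 and from −0.02 to 0.10 for Bcl2l11. Bcl2l11 was the only one whose sign depended on 1 array.

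**Figure D2:**
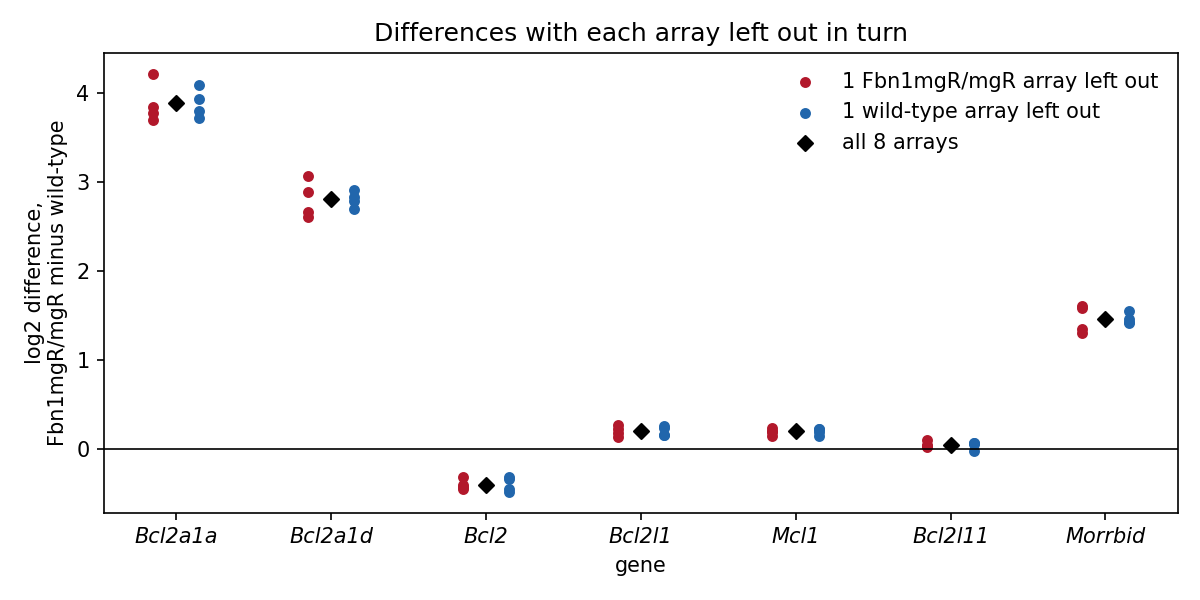
Log2 difference, Fbn1mgR/mgR minus wild-type (vertical axis), of the 7 genes (horizontal axis), with all 8 arrays (black diamonds), with 1 Fbn1mgR/mgR array left out (red) and with 1 wild-type array left out (blue). The 3 sets of Bcl2a1a, Bcl2a1d and Morrbid stay at or above 1.31, and Bcl2l11 crosses 0.

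The aorta is a mixed tissue, and in bulk RNA more cells of a type and more RNA per cell cannot be told apart. The marker lists were chosen with earlier results of these data known, so counts over them are descriptions. All 15 macrophage markers tested were higher in the mutant at the limma threshold. Their mean was 9.51, 10.23, 9.86 and 9.91 in the Fbn1mgR/mgR arrays mgR611 to mgR614, against 7.86, 7.87, 7.63 and 7.94 in the wild-type arrays. The smallest p-values were those of Ctss, the lysosomal protease cathepsin S (difference 2.99, limma adjusted p = 0.000336), Mpeg1, perforin-2 (2.59, limma adjusted p = 0.000519), and Itgam, the integrin CD11b (2.05, limma adjusted p = 0.00103). Of 10 general leukocyte markers, 7 were called higher and 0 lower, and the list mean ranged from 7.90 to 8.43 in Fbn1mgR/mgR and from 6.64 to 7.24 in wild-type. The part of leukocyte content in the differences of the A1 genes and Morrbid was not tested.

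Markers of other blood-derived cells were counted in the same way. Counts with an unadjusted p below 0.05 in limma are given without the share of all clusters, which was not counted. Of the 11 neutrophil markers, 9 were tested and 0 were called higher or lower (0 in either direction with an unadjusted p below 0.05 in limma), with list means from 4.23 to 5.62 in Fbn1mgR/mgR and from 4.19 to 5.05 in wild-type. The highest of these was mgR613. None of the 5 eosinophil markers exceeded the dim mark on all arrays, and their list means ranged from 3.48 to 3.61 in Fbn1mgR/mgR and from 3.42 to 3.50 in wild-type. Of 7 mast cell markers 6 were tested and 0 called (1 higher and 0 lower with an unadjusted p below 0.05 in limma), with list means of 6.07 to 7.47 in Fbn1mgR/mgR and 5.80 to 6.60 in wild-type. Of 4 B cell markers tested 0 were called (3 higher and 0 lower with an unadjusted p below 0.05), with list means of 4.20 to 5.14 in Fbn1mgR/mgR and 4.0 to 4.20 in wild-type. Of 7 T and NK cell markers tested 0 were called (2 higher and 0 lower with an unadjusted p below 0.05), with list means of 5.38 to 7.15 in Fbn1mgR/mgR and 5.76 to 7.09 in wild-type.

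Smooth muscle markers, 7 of 7 tested and 0 called (0 higher and 1 lower with an unadjusted p below 0.05 in limma), had list means of 13.21 to 14.29 in Fbn1mgR/mgR and 13.85 to 14.54 in wild-type, and all 7 were above the dim mark on every array, so markers of the labelled tissue were present. Endothelial markers, 7 of 7 tested and 0 called (0 higher and 3 lower with an unadjusted p below 0.05), had list means of 9.80 to 10.59 in Fbn1mgR/mgR and 10.27 to 10.96 in wild-type. A brown fat list stood apart in 1 array of each genotype, at 10.00 in mgR614 and 10.07 in WT676, against 6.13 to 7.85 in the other 6. Without these 2 arrays the difference was 3.99 for Bcl2a1a, 2.72 for Bcl2a1d, 1.35 for Morrbid, 0.05 for Bcl2l11, −0.40 for Bcl2, 0.18 for Bcl2l1 and 0.19 for Mcl1, close to the values with all arrays.

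**Figure D3:**
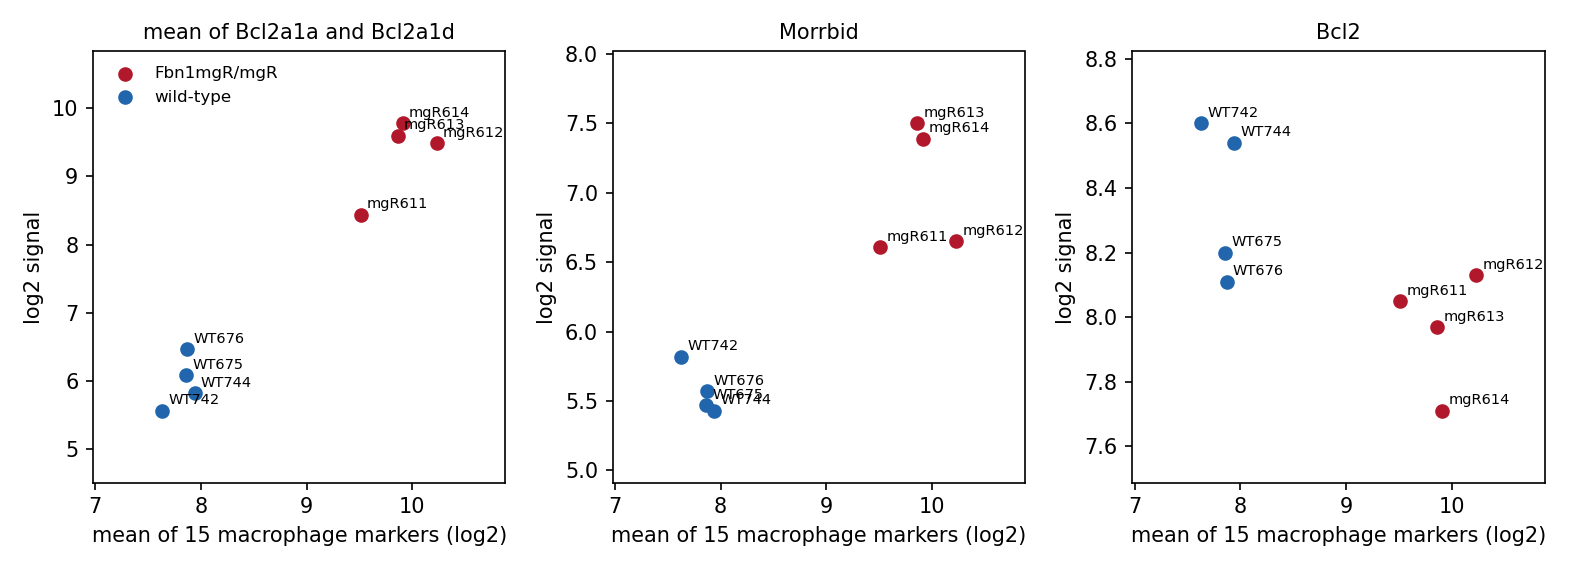
Log2 signal of the A1 mean (Bcl2a1a and Bcl2a1d), Morrbid and Bcl2 (vertical axes) against the mean of 15 macrophage markers (horizontal axes), with 1 point for each array, Fbn1mgR/mgR in red and wild-type in blue. The genotypes form separate clusters on the horizontal axis, from 9.51 to 10.23 in Fbn1mgR/mgR and from 7.63 to 7.94 in wild-type.

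Genes with profiles most like the A1 mean over the 8 arrays were sought among 12869 candidates. The A1 mean, over Bcl2a1a and Bcl2a1d, was 8.44, 9.49, 9.60 and 9.78 in the Fbn1mgR/mgR arrays, against 6.08, 6.46, 5.56 and 5.82 in wild-type. The most alike were Lair1 (Pearson r = 0.995), Ccr1 (r = 0.994), Tyrobp (r = 0.994), Ctsc (r = 0.990) and Lilrb4a (r = 0.990), which encode receptors, a signalling adaptor and a protease of leukocytes. Ccr1, a chemokine receptor, ranged from 6.23 to 7.69 in Fbn1mgR/mgR and from 4.38 to 5.0 in wild-type. All 5, having been picked for likeness to the A1 mean, had every Fbn1mgR/mgR value above every wild-type value, as the A1 mean did. After the genotype means had been removed, the most alike were Rpl7a (r = 0.988), Mrps25 (r = 0.987), Mcee (r = 0.985), Rpl15-ps3 (r = 0.984) and Rpl36-ps2 (r = 0.984), and none of the 5 was among the first 5.

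For Morrbid the most alike were Eif4e2 (r = 0.992), Lpcat2 (r = 0.988), Fhl2 (r = 0.984), Tpm4 (r = 0.983) and Prc1 (r = 0.982). Lpcat2, which makes platelet-activating factor, ranged from 5.99 to 6.50 in Fbn1mgR/mgR and from 5.53 to 5.70 in wild-type. With genotype means removed they were Mcts2 (r = 0.980), Surf2 (r = 0.975), Samd5 (r = 0.969), Tnfrsf26 (r = 0.968) and Ap3m1 (r = 0.962). For Bcl2 the most alike were Arrdc3 (r = 0.992), Mia (r = 0.989), Avl9 (r = 0.977), Asb2 (r = 0.973) and Arid4b (r = 0.972). Arrdc3, an arrestin-domain gene, ranged from 9.73 to 11.35 in Fbn1mgR/mgR and from 11.26 to 12.93 in wild-type, which overlap. All these correlations are descriptions over the same 8 arrays.

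Beside the selected genes, 53 related genes were followed, 9 of them listed only as neighbours of Bcl2l11 and Morrbid on the map and the rest as genes of apoptosis or of the cytokines and receptors reported to act on Morrbid. These lists were chosen with earlier results of these data known, so counts over them are descriptions. Of the 53, 48 had a cluster and 40 were tested. limma called 3 of them higher and 0 lower, against 1.54% and 0.558% of all clusters, and their median difference was 0.11. The 3 called were Bcl2a1c, the receptor gene Csf2ra and, from the neighbours, Fbln7. With an unadjusted p below 0.05 in limma, 13 were higher and 0 lower. The share of all clusters at that unadjusted mark was not counted, so these numbers have no baseline. Of the 40 tested, 11 had all Fbn1mgR/mgR values above all wild-type values and 0 had them all below, against 5.26% and 3.65% of all clusters.

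Bcl2a1c, the fourth mouse A1 gene, read 6.13, 6.62, 6.64 and 6.63 in Fbn1mgR/mgR, against 5.01, 5.24, 4.98 and 5.10 in wild-type. Its genotypes did not overlap, and the difference was 1.42 (SE 0.141, limma adjusted p = 0.00155). Whether its cluster also binds transcripts of the other A1 genes was not tested, so it is not counted as a separate measurement of them. Whether Bcl2a1c makes a protein that holds back apoptosis was not tested either. Of the other genes on its list, that of anti-apoptotic relatives, Bcl2l2, the BCL-W gene, had a difference of 0.06 (limma adjusted p = 0.85). Bcl2l10 was too dim to test.

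The effectors related to BAX did not pass the threshold. Bak1 read 5.91, 5.83, 6.18 and 6.13 in Fbn1mgR/mgR, against 5.48, 5.55, 5.46 and 5.58 in wild-type, without overlap, and its difference was 0.49 (SE 0.113, limma adjusted p = 0.0631). Bok had a difference of 0.30 (limma adjusted p = 0.263). Among the 7 BH3-only genes, all tested, 0 passed (2 higher and 0 lower with an unadjusted p below 0.05 in limma), with a median difference of 0.06. The smallest p-values were those of Pmaip1, which encodes NOXA (0.28, limma adjusted p = 0.149), and Bid (0.48, limma adjusted p = 0.149).

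Among 6 tested genes of the BCL2-like and BNIP group, 0 passed (1 higher and 0 lower with an unadjusted p below 0.05 in limma). Bnip2 had a difference of 0.30 (limma adjusted p = 0.287) and Bcl2l13 one of −0.28 (limma adjusted p = 0.383). Of 6 tested caspases and apoptosome genes, 0 passed (1 higher and 0 lower with an unadjusted p below 0.05). The initiator caspase Casp8 read 9.01, 9.52, 9.60 and 9.45 in Fbn1mgR/mgR, against 8.88, 8.63, 8.70 and 8.71 in wild-type, a difference of 0.66 (SE 0.157, limma adjusted p = 0.0698), and Casp2 had a difference of −0.19 (limma adjusted p = 0.692). Of 8 caspase inhibitors and their antagonists, 0 passed (2 higher and 0 lower with an unadjusted p below 0.05), with Birc3 at 0.44 (limma adjusted p = 0.255) and Birc5 at 0.38 (limma adjusted p = 0.256).

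Receptors of the cytokines reported to induce Morrbid were measured in part, since 3 of the 5 had a cluster and 2 were tested. Csf2ra, the alpha chain of the GM-CSF receptor, read 4.94, 5.26, 4.95 and 4.85 in Fbn1mgR/mgR, against 4.32, 4.36, 4.47 and 4.45 in wild-type. The genotypes did not overlap, and Csf2ra rose by 0.60 (SE 0.108, limma adjusted p = 0.0244). Its wild-type values lay not far above the dim mark of 4.13, so the size of its difference is uncertain. The call was lost with any of 5 arrays left out, mgR613 (limma adjusted p = 0.0594), WT675 (0.0776), WT676 (0.0695), WT742 (0.0519) and WT744 (0.069), and without both arrays that stood apart in brown fat markers (0.102). Il3ra, the interleukin-3 receptor alpha chain, read 6.36, 6.63, 6.65 and 6.42 in Fbn1mgR/mgR, against 6.05, 5.81, 6.08 and 5.99 in wild-type, a difference of 0.53 (SE 0.120, limma adjusted p = 0.0594). The cytokine transcripts Il3, Il5 and Csf2 were too dim to test, at list means of 3.29 to 3.47 in Fbn1mgR/mgR and 3.15 to 3.39 in wild-type.

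**Figure D4:**
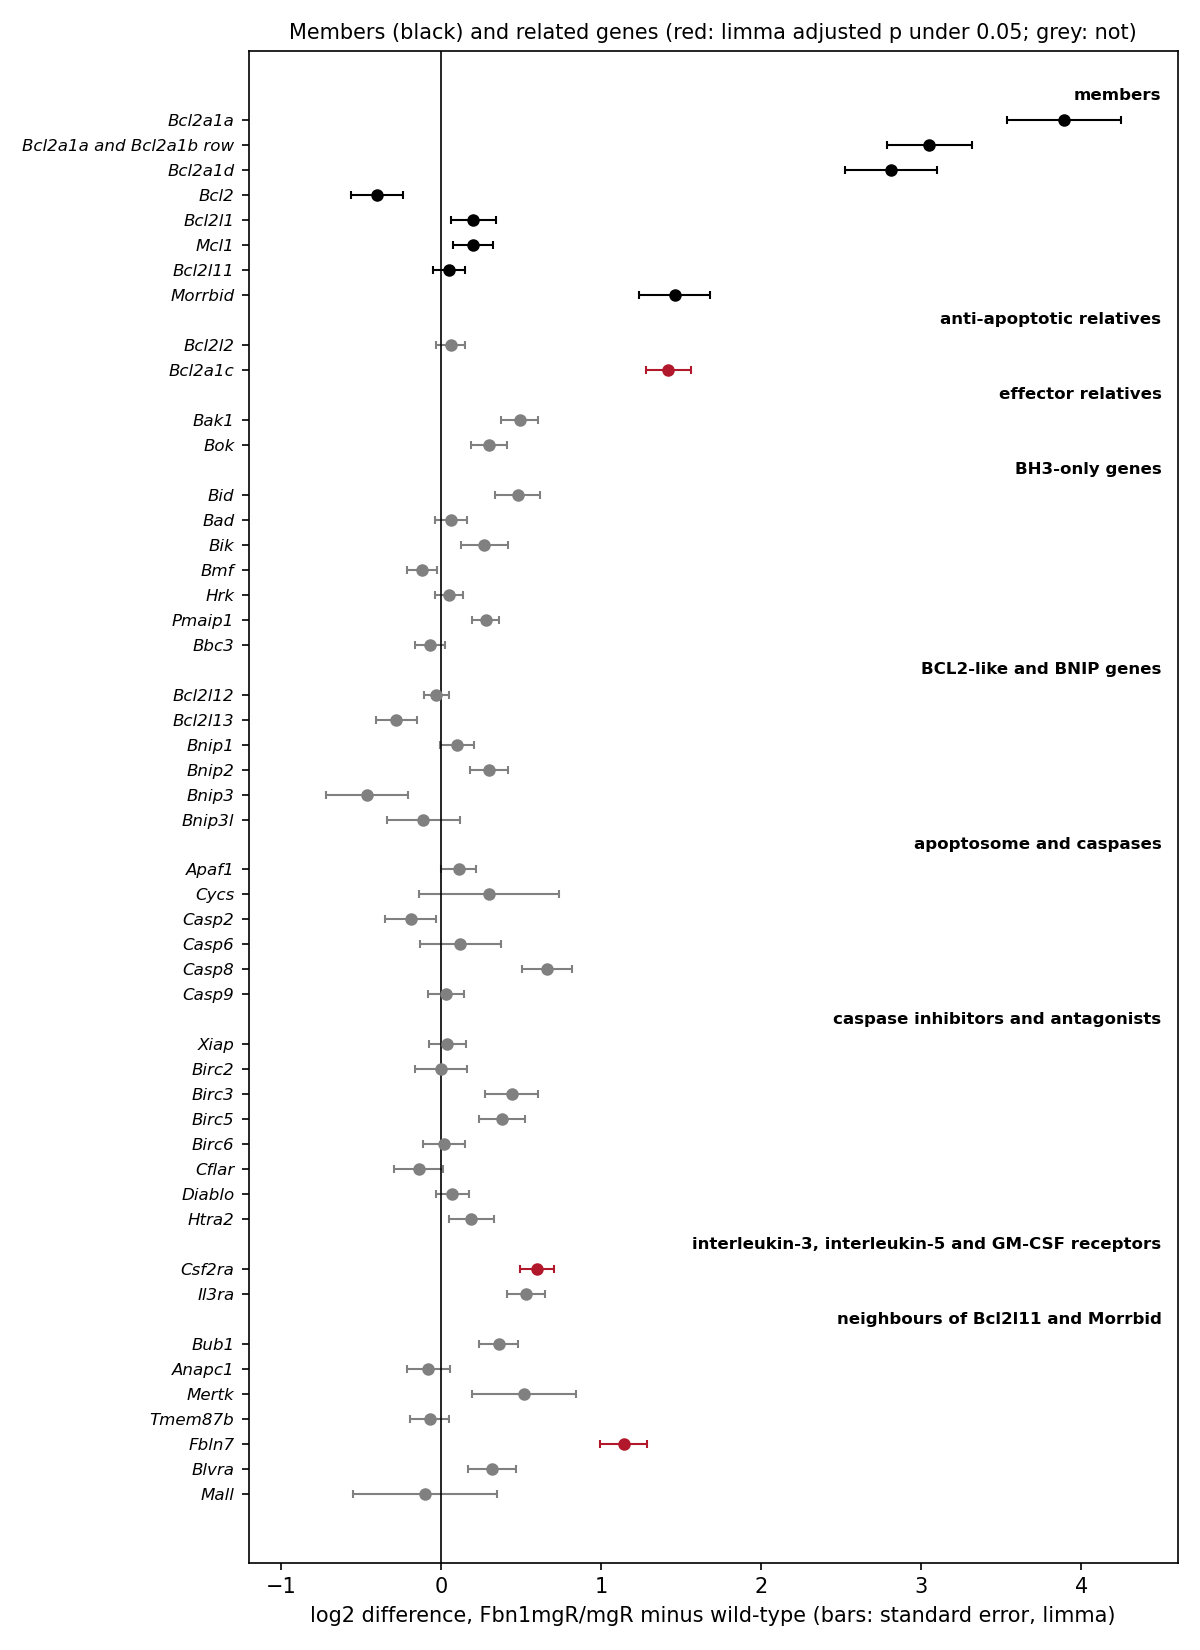
Log2 difference, Fbn1mgR/mgR minus wild-type, with its standard error from limma (horizontal axis), for the selected genes (black) and the lists of related and neighbouring genes (red, limma adjusted p under 0.05; grey, not). The selected A1 clusters and Morrbid lie furthest to the right, and of the other genes Bcl2a1c, Csf2ra and the neighbour Fbln7 are the 3 called.

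On chromosome 2, where Fbn1 also lies, RefSeq places 64 genes between Fbn1 and Bcl2l11 and 1, the lncRNA Gm14009, between Bcl2l11 and Morrbid. Gm14009 was dim, at 3.15 in Fbn1mgR/mgR and 3.16 in wild-type. Genes annotated over the selected ones were dim too: Gm14010, over Morrbid, had means of 3.71 in Fbn1mgR/mgR and 3.75 in wild-type, and Acoxl, over Bcl2l11, had 3.72 in Fbn1mgR/mgR and 3.73 in wild-type. Of the 10 other genes with a cluster from Bub1 to Anapc1, 4 were tested and 0 were called (2 higher and 0 lower with an unadjusted p below 0.05 in limma), with differences from −0.08 for Anapc1 to 0.40 for Gm14007. Further on, with 15 genes between it and Morrbid, Fbln7, a fibulin of the extracellular matrix, read 6.73, 6.53, 6.56 and 6.10 in Fbn1mgR/mgR, against 5.27, 5.32, 5.50 and 5.25 in wild-type. It rose by 1.14 (SE 0.147, limma adjusted p = 0.00522). Of the 7 tested genes on the list of neighbours, it was the only one called, with a further one, Bub1, under 0.05 unadjusted (0.36, limma adjusted p = 0.213), and Blvra had a difference of 0.32 (limma adjusted p = 0.385).

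On chromosome 9, RefSeq places Bcl2a1d, Bcl2a1a and Bcl2a1b between Mthfsl and Mthfs, with 8 genes between Bcl2a1d and Bcl2a1a, 9 between Bcl2a1a and Bcl2a1b and 541 between Bcl2a1b and Bcl2a1c. Of the 12 other genes with a cluster in that stretch, 4 were tested and 1 was called. This was the lncRNA Gm24463, 2 places after Bcl2a1a and picked out after its values were seen, at 8.32 to 9.34 in Fbn1mgR/mgR and 7.24 to 7.96 in wild-type (difference 1.23, SE 0.246, limma adjusted p = 0.0369). Gm10634, annotated over Bcl2a1d, was dim, with means of 3.91 in Fbn1mgR/mgR and 3.86 in wild-type. The flanking genes Mthfsl (0.22, limma adjusted p = 0.62) and Mthfs (0.11, limma adjusted p = 0.834) did not pass.

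**Figure D5:**
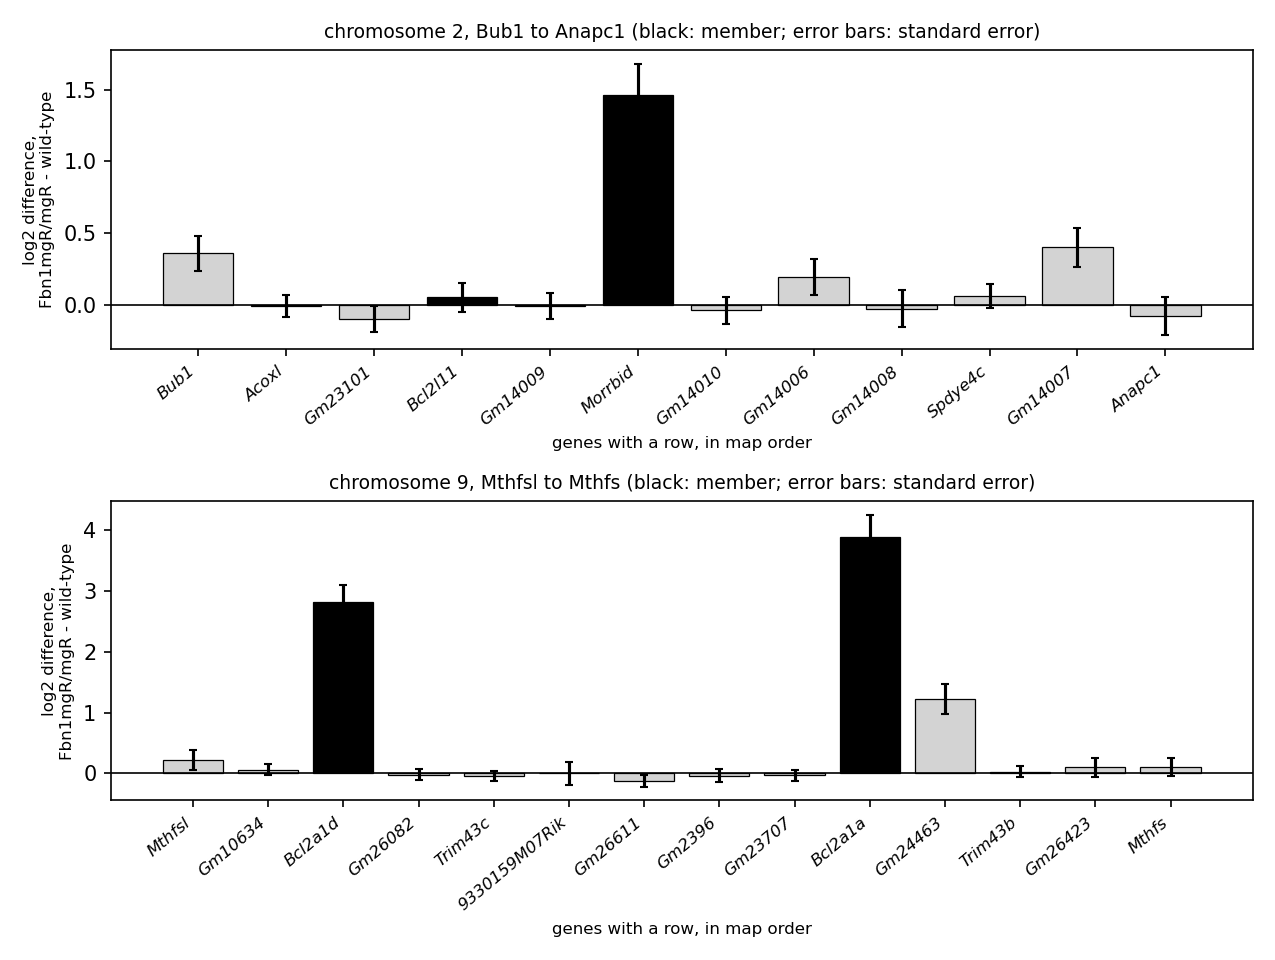
Log2 difference, Fbn1mgR/mgR minus wild-type (vertical axis), of genes with a cluster in map order (horizontal axis) around Bcl2l11 and Morrbid on chromosome 2 and around the A1 genes on chromosome 9, with the standard error as error bars. Black bars are the selected genes, and the tall bars are Morrbid, Bcl2a1d, Bcl2a1a and, at 1.23, Gm24463.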

How the data were processed

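Per the labels, 4 Fbn1mgR/mgR and 4 wild-type RNA samples of ascending aorta from male mice aged 10 weeks were hybridised to 1 array each. Groups were taken from the genotype label. The values are the authors' deposited log2 signals, 1 per transcript cluster. They were made with Transcriptome Analysis Console, per the submitters' processing notes, and the method of normalization is not given in the sources used here. Genes were named from the platform annotation, with 827 symbols updated by gene ID through RefSeq (GRCm38.p6), Morrbid among them. Columns of no sample numbered 0.

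The genes described, the lists of related and neighbouring genes and the marker lists were chosen with earlier results of these data known. Differences were fitted with limma 3.58.1 in R 4.3.3 (lmFit, eBayes with an intensity trend over all 65956 clusters), and p-values were adjusted by Benjamini-Hochberg over the 32957 clusters with a mean signal above the median of 4.01. From each list of related or neighbouring genes, genes past an adjusted p of 0.05 and the other 2 tested genes of smallest p are named, with the 5 most alike genes per profile and up to 3 genes per marker list. A1 windows were aligned with Biopython 1.88, and tables and figures were made in Python 3.11.15 (pandas 2.3.3, matplotlib 3.10.9).

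Array medians lay between 3.95 and 4.07, and correlations between arrays were 0.989 to 0.993 within and 0.984 to 0.990 between genotypes, so no array was counted as a duplicate. The number of arrays limits the precision (median SE of a difference 0.151). On simulated data for this comparison (65956 clusters, 32978 tested), the fit recovered 69% of the 100 clusters given a shift of 1 log2 unit and 89% of the 100 given a shift of 2, 0 of them with the wrong sign, and called 9 that had no shift. The shifted clusters were drawn from those some way above the median signal, so recovery of clusters just above the filter was not measured. Alternatives were other variance models, filters and scalings, a brown fat covariate, each array left out and, added after the data were seen, both arrays highest in brown fat markers left out.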

Additional observations from a re-analysis of the deposited data

Results flagged for a closer look

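Within a genotype, 1 of 4 arrays stood far from the other 3 in 3 of 50 groups looked at, and chance marks about 1 in 20. Bcl2l11 read 4.61 in wild-type array WT742, while the other 3 wild-type arrays read 4.85 to 4.88. Bcl2a1c read 6.13 in Fbn1mgR/mgR array mgR611, while the other 3 mutant arrays read 6.62 to 6.64, and mgR611 was also the lowest mutant array for Bcl2a1a, at 10.62, and Bcl2a1d, at 6.26. Pmaip1 read 4.85 in mgR611, above the 4.67 to 4.69 of the other 3 mutant arrays.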

How the results depend on the processing

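The differences of the 7 genes kept within the spread between arrays under all 13 alternatives run on each. For the settings that left out arrays this was fixed beforehand, since such a change cannot move a difference further than that spread. The mean over all clusters of a gene was fixed too, because each gene had 1. Only quantile normalization, median centring and the brown fat covariate could have given another outcome. Clusters called higher numbered 507, and between 272 and 521 with 1 array left out: 311 without mgR613, 319 without mgR614, 273 without WT675, 283 without WT676, 313 without WT742 and 272 without WT744. Clusters called lower numbered 184, and between 67 and 146 with 1 array left out: 115 without mgR611, 96 without mgR613, 105 without mgR614, 89 without WT675, 122 without WT676 and 67 without WT744. Fewer arrays enter these fits. With mgR614 and WT676, the arrays brightest in brown fat markers, both left out (a choice made after seeing the data), 172 were called higher and 77 lower, and with no filter on mean signal, which adds clusters to the adjustment, 99 were called lower. Of the related and neighbouring genes, 3 were called higher, with 6 under eBayes without a trend, 5 after quantile normalization and 2 to 4 with 1 array left out, and the cause was not tested; 0 were called lower in all 16. Over the alternatives the limma adjusted p ranged from 0.000636 to 0.0195 for Bcl2a1c, from 0.00308 to 0.0224 for Fbln7 and from 0.0181 to 0.102 for Csf2ra. It ranged from 0.0326 to 0.24 for Bak1, from 0.0241 to 0.279 for Casp8 and from 0.0286 to 0.202 for Il3ra, which passed under some settings. No paired analysis was possible because the genotypes share 0 replicate numbers. Dim signal limits Bcl2a1d in wild-type and the cytokine transcripts, and Bcl2l11 lay not far above the dim mark of 4.13 on every array. In wild-type, Csf2ra (4.32 to 4.47) and Pmaip1 (4.39 to 4.48) lay closer to that mark than Bcl2l11 did. Birc5 and Bub1 had wild-type values under it (lowest 4.01 and 3.92), so the sizes of these 4 differences are uncertain too.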
